A study of Homo sapiens with 11 samples.

Results

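The genes described here are 10 transcription factors of the B lineage, PAX5, EBF1, TCF3, IKZF1, IKZF3, FOXO1, BACH2, SPIB, LEF1 and SOX4. They were listed by symbol, all 10 were found among the 19775 genes measured, and each was represented by the probe set, listed with that gene alone, that had the highest mean over all 11 arrays. The cells were Reh, an established line of B-cell precursor leukaemia that carries the ETV6-RUNX1 fusion. All of them had been infected with a virus that expresses miR-125b and kept in culture as a stable line, the control included, so every comparison was made on top of miR-125b. The control group had 2 arrays of cells given a scrambled precursor oligonucleotide at 66 µM. The miR-99a group and the miR-100 group had 3 arrays each, with 66 µM of 1 oligonucleotide, and the combination group had 3 arrays with 33 µM of each. The oligonucleotides were added again after 72 h, and RNA was taken 48 h after the second addition. The series also concerns cells that carry a stable scrambled sequence in place of miR-125b, and the response to the drug vincristine. Neither was analysed here. All arrays come from 1 line, and the labels speak of triplicate incubation without saying which arrays were separate cultures, so the p-values measure the spread between these arrays, which may be technical.

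B-cell development rests on a small network of DNA-binding proteins. TCF3, whose products are the E2A proteins, and FOXO1 act early and promote EBF1; EBF1 and PAX5 then activate one another and the genes of the pre-B-cell receptor and its signalling chains, and PAX5 holds the cells to the B lineage. The Ikaros family, BACH2, SPIB, LEF1 and SOX4 act around this core at the pro-B, pre-B and mature stages, and PAX5, EBF1, IKZF1 and TCF3 are recurrent targets of deletion or fusion in B-cell precursor leukaemia. In RefSeq (GRCh38.p14) PAX5 lies at chr9:36833269-37034268, EBF1 at chr5:158695920-159099916, TCF3 at chr19:1609292-1652615, IKZF1 at chr7:50303455-50405101 and IKZF3 at chr17:39757715-39864312. FOXO1 lies at chr13:40555667-40666641, BACH2 at chr6:89926528-90296843, SPIB at chr19:50418938-50431314, LEF1 at chr4:108047548-108168932 and SOX4 at chr6:21593751-21598619.

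The sequences of the microRNAs are given first, because 2 of the 3 treatments differ by so little. Each is the mature 5p strand as RefSeq lists it (GRCh38.p14), 5′ to 3′, with the seed, bases 2 to 8, in capitals. The labels name the microRNAs without the strand. MIR99A lies at chr21:16539101-16539122 on the plus strand and MIR100 at chr11:122152275-122152296 on the minus strand. The same mature miR-125b comes from MIR125B1 at chr11:122099809-122099830 on the minus strand and MIR125B2 at chr21:16590253-16590274 on the plus strand.
hsa-miR-99a-5p: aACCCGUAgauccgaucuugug
hsa-miR-100-5p: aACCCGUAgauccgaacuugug
hsa-miR-125b-5p: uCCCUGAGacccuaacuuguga
MiR-99a and miR-100 share their seed and all but 1 of 22 bases, the difference being U16A with positions counted from the 5′ end of miR-99a. MiR-125b has another seed and was present in all 4 groups.

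Arrays correlated with each other at 0.989 to 0.997 over all probe sets. Of the treated arrays, the 3 that carry replicate number 3 stood apart from numbers 1 and 2 in many genes, while the control group has no array with that number. The labels attach no batch, day or passage to the number. Signal at the 3′ end of ACTB minus that at its 5′ end, a measure of RNA integrity, was 2.52 to 2.85 on the log2 scale in the replicate 3 arrays and 2.45 to 3.17 in the other treated arrays. For GAPDH it was 0.56 to 0.71 against 0.53 to 0.63. The results below are therefore given by treatment and by replicate number, and the treatment comparisons also without replicate 3.

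The cells carried the expression pattern of B-cell precursors. Of 14 measured markers of that stage, 12 had a mean of at least 8 on the log2 scale, where the median probe set of an array lay between 5.95 and 5.98. The surrogate light chain gene VPREB1, at 5.48, and the stem cell marker CD34, at 6.36, were low. None of 14 T and NK cell markers, 12 myeloid markers or 9 erythroid and platelet markers had a mean of 8. None of these was called between replicate 3 and replicates 1 and 2. After quantile normalization 2 T and NK markers were called lower, as were 3019 of the 19775 genes. Of 7 plasma cell markers, XBP1 (9.94) and MZB1 (10.14) had a mean of at least 8. In replicate 3, 2 of the 7 were called lower, as were 12.2% of all genes. The summed level of the B precursor markers, as a mean per array, was 10.14 to 10.3 in control, 10.15 to 10.34 in treated replicates 1 and 2, and 10.11 to 10.2 in replicate 3. That mean holds single markers that moved in both directions. In replicate 3, 2 of the 14 were called higher and 4 lower, beside 17.1% and 12.2% of all genes. Since the RNA comes from whole cultures, fewer cells expressing a gene and less RNA per cell cannot be told apart.

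**Figure D1:**
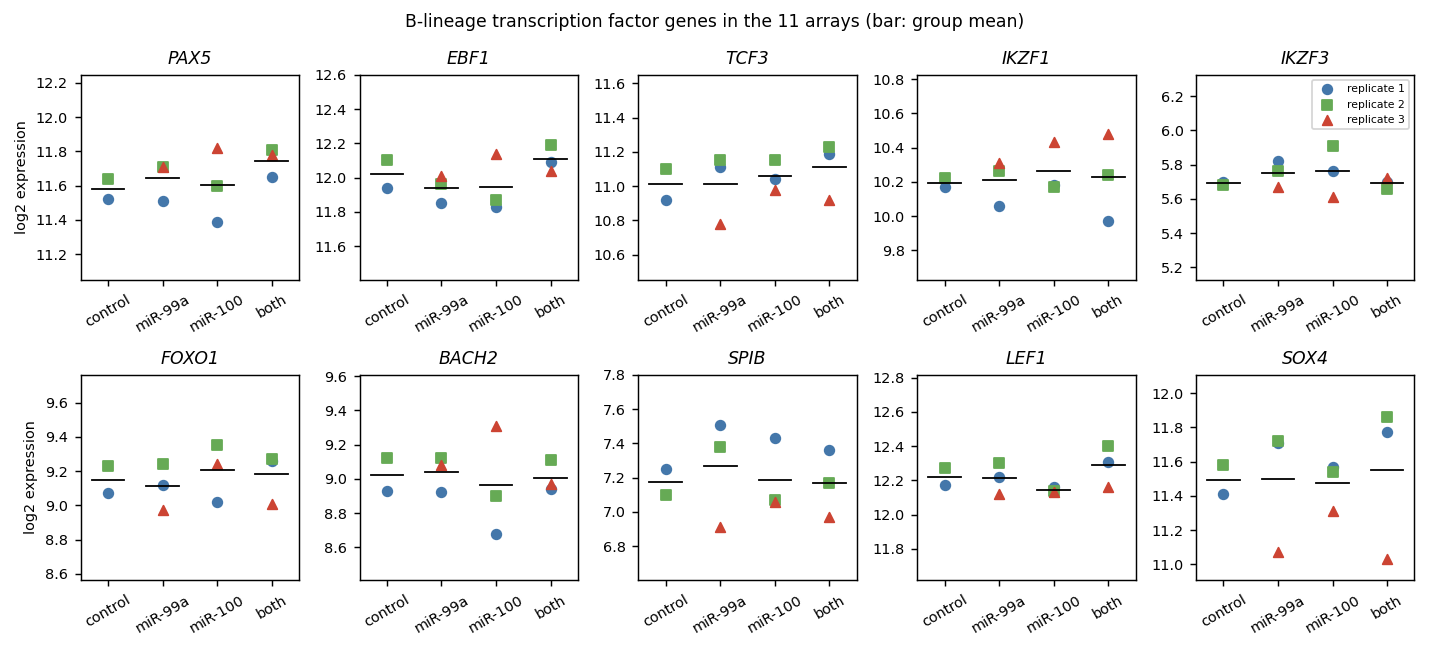
Level of each of the 10 genes (log2 of the deposited signal) on each of the 11 arrays, by group, with the marker showing the replicate number, the bar the group mean and "both" the combination. LEF1, at 12.12 to 12.4, stays within a narrow band over the arrays. The 3 SOX4 points of replicate 3, at 11.03 to 11.31, lie below all other SOX4 points.

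Of the factors that start the programme, TCF3 was measured at 10.92 and 11.1 in the control arrays. It was at 11.11, 11.15 and 10.78 in miR-99a replicates 1, 2 and 3, at 11.04, 11.15 and 10.98 with miR-100, and at 11.19, 11.23 and 10.92 with the combination. In each treatment the lowest of these was replicate 3, and the groups overlapped. FOXO1, the forkhead factor that PI3K and AKT signalling keeps out of the nucleus, ranged from 8.97 to 9.35 over the 11 arrays, with group means between 9.11 and 9.2. EBF1 was at 11.94 and 12.1 in control, at 11.85, 11.96 and 12.01 with miR-99a, at 11.83, 11.87 and 12.14 with miR-100, and at 12.09, 12.19 and 12.04 with the combination. In replicates 1 and 2 the combination was above both single oligonucleotides, and in replicate 3 it was below miR-100.

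PAX5, the commitment factor, was at 11.52 and 11.64 in control. It was at 11.51, 11.71 and 11.71 with miR-99a, at 11.39, 11.6 and 11.82 with miR-100, and at 11.65, 11.81 and 11.78 with the combination. All 3 combination arrays lay above both control arrays, the lowest at 11.65 against 11.64. BACH2, a repressor that PAX5 activates and that restrains plasma cell differentiation, was at 8.93 and 9.12 in control and ranged from 8.92 to 9.12 with miR-99a, from 8.68 to 9.31 with miR-100 and from 8.94 to 9.11 with the combination. Its lowest and highest arrays of all 11 were thus both miR-100 arrays, replicates 1 and 3.

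In the Ikaros family, IKZF1, which encodes the zinc-finger protein Ikaros, was at 10.17 and 10.22 in control, at 10.06, 10.26 and 10.31 with miR-99a, at 10.18, 10.17 and 10.43 with miR-100, and at 9.97, 10.24 and 10.48 with the combination. Replicate 3 was the highest array of each treatment. IKZF3, which encodes the related factor Aiolos and rises at the pre-B stage in normal development, ranged from 5.61 to 5.91. All 3 of its probe sets had means of 4.99 to 5.73, below the median of the arrays. The files give no detection call, so whether this low signal is above background is not known, and its small differences carry little weight.

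SPIB, an ETS-family factor related to PU.1 that acts in mature B cells, was at 7.25 and 7.1 in control, at 7.51, 7.38 and 6.91 with miR-99a, at 7.43, 7.07 and 7.06 with miR-100, and at 7.36, 7.17 and 6.97 with the combination. LEF1, an HMG-box factor that acts with beta-catenin and promotes survival of pro-B cells, varied little, with an SD of 0.09 over 11 arrays around a mean of 12.22. Its 3 miR-100 arrays, at 12.13 to 12.16, all lay below the control arrays at 12.17 and 12.27. SOX4, an HMG-box factor required for pro-B cells, was at 11.41 and 11.58 in control, at 11.71, 11.72 and 11.07 with miR-99a, at 11.57, 11.54 and 11.31 with miR-100, and at 11.77, 11.86 and 11.03 with the combination. It had the largest spread of the 10 genes, an SD of 0.27 over the arrays, and its 3 lowest arrays were those of replicate 3.

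None of the 10 genes was called changed by an oligonucleotide. With limma over all genes and a Benjamini-Hochberg threshold of 0.05, 0 members passed when miR-99a, miR-100, the combination or the mean of the treatments was set against control, and 0 passed between the single oligonucleotides or between them and the combination. In these 6 comparisons 0% of all genes passed, and 0 members had an unadjusted p under 0.05, while 198, 305, 724, 489, 194 and 451 of the 19775 genes did, in that order. Over replicates 1 and 2 alone, 290 genes passed for the combination and 198 for the mean of the treatments, and again 0 members. Of the members' 30 differences of a treatment from control, the lowest was -0.08 and the highest 0.17 on the log2 scale. The comparisons with control share its 2 arrays and are not independent of each other.

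**Figure D2:**
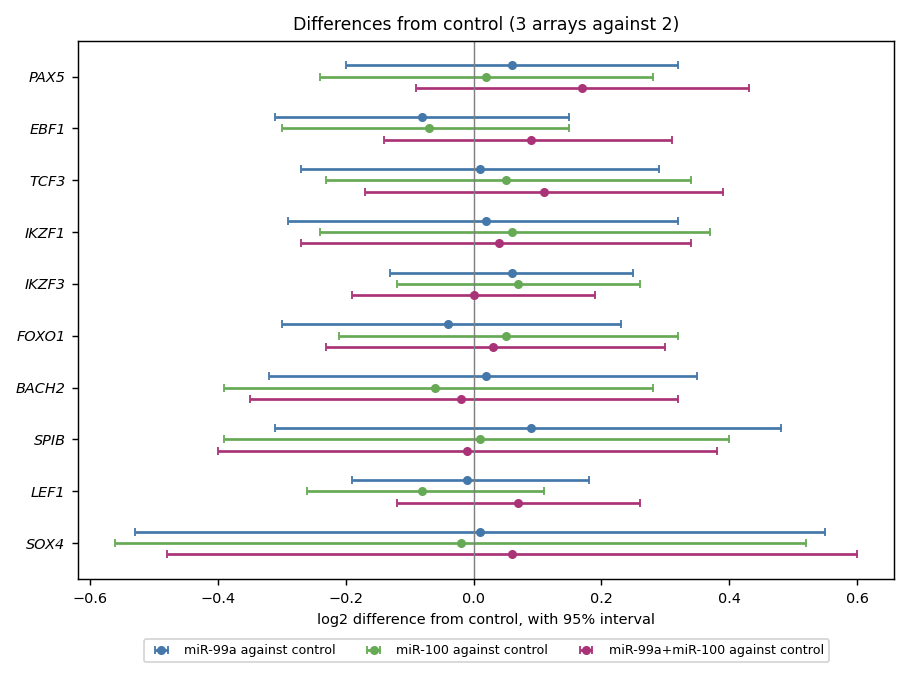
Log2 difference of each treatment from control for the 10 genes, with the 95% interval of the limma fit over 11 arrays; the zero line marks no difference. Intervals of all 30 differences include 0, and those of SOX4 and SPIB are the widest.

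The largest difference was that of PAX5 under the combination. Its mean was 11.75 ± 0.09 (SD, n = 3) against 11.58 ± 0.09 (SD, n = 2) in control, a difference of 0.17 ± 0.12 (SE) with a 95% interval of -0.09 to 0.43 and a limma adjusted p of 1. No overlap in the direction of a rise, as for PAX5, was seen in 9.11% of all genes in that comparison. LEF1 under miR-100 was at 12.14 ± 0.02 (SD, n = 3) against 12.22 ± 0.07 (SD, n = 2), a difference of -0.08 ± 0.08 (SE, limma adjusted p = 1), and no overlap in the direction of a fall was seen in 6.19% of all genes. With miR-99a, no member was free of overlap with control, against 15.4% of all genes in either direction. Median differences of the 10 genes from control were 0.01 for miR-99a, 0.02 for miR-100 and 0.05 for the combination, where the medians over all genes were -0.01, -0.01 and 0.

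EBF1 had the largest difference of the members when the combination was set against the mean of the single oligonucleotides. It was 0.16 ± 0.08 (SE) higher, with a limma adjusted p of 1, and 0.26 ± 0.07 higher over replicates 1 and 2 alone (adjusted p = 0.321). PAX5 was 0.13 ± 0.09 and LEF1 0.11 ± 0.07 higher in the same comparison, both with an adjusted p of 1. With the replicate number as a block EBF1 was 0.16 ± 0.07 higher (adjusted p = 0.719). Between miR-100 and miR-99a, the oligonucleotides that differ by U16A, 0 members passed, and the median of the members' differences was -0.01. A p that misses the threshold does not show that the oligonucleotides act alike, and the widest member interval here, that of SOX4, ran from -0.51 to 0.45. Treated arrays of the same replicate number correlated, but the shared shift of replicate 3 raises those values. They cannot show that numbers 1 and 2 pair the arrays. With the number as a block in limma, the SOX4 difference was -0.03 ± 0.08 (adjusted p = 1).

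For SOX4 the treatment difference depended on replicate 3. Against control it was 0.01 ± 0.24 (SE) for miR-99a, -0.02 ± 0.24 for miR-100 and 0.06 ± 0.24 for the combination. None passed the limma threshold. Over replicates 1 and 2 alone they were 0.22 ± 0.08, 0.06 ± 0.08 and 0.32 ± 0.08, with adjusted p of 0.382, 0.766 and 0.0511. Without replicate 3, both combination arrays, at 11.77 and 11.86, and both miR-99a arrays, at 11.71 and 11.72, were above the control arrays at 11.41 and 11.58, and miR-100 was not, at 11.54 and 11.57. None of these values passed the threshold. The share of all genes that lie apart at 2 arrays against 2 is not given, so this placing does not set SOX4 apart. Over replicates 1 and 2, SPIB was 0.26 ± 0.1 higher with miR-99a (adjusted p = 0.393) and TCF3 was 0.21 higher with the combination (adjusted p = 0.226). BACH2 differed by -0.23 ± 0.1 with miR-100 (adjusted p = 0.219), against -0.06 with replicate 3 included. None of the 3 passed.

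Replicate number separated the arrays more than the oligonucleotide did for most members. In the 9 treated arrays, with 3 treatments and 3 numbers, the number accounted for 84.2% of the sum of squares of SOX4, 81.7% of that of SPIB, 80.8% of that of IKZF1 and 79.1% of that of TCF3, and the treatment for 1.35%, 4.07%, 1.68% and 8.6%. EBF1 stood on the other side, with 39.2% for the treatment and 22.5% for the number, and LEF1 had 40.3% and 41.1%. The members' medians were 9.05% for the treatment and 55.5% for the number. Over all genes the medians were 11.3% and 39.2%, and over genes with a mean of at least 8 they were 4.31% and 71.3%, with the members between these values.

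Replicate 3 differed from replicates 1 and 2 of the same treatments in 4 of the 10 genes, 3 lower and 1 higher, where 29.3% of all genes were called, 12.2% lower and 17.1% higher. SOX4 was lower by the most, at 0.68-fold, a log2 difference of -0.56 ± 0.07 (SE) with a limma adjusted p of 1.92e-08. SPIB was at 0.788-fold (-0.34 ± 0.07, adjusted p = 0.000211) and TCF3 at 0.838-fold (-0.26 ± 0.07, adjusted p = 0.00185). IKZF1 was higher at 1.2-fold (0.26 ± 0.07, adjusted p = 0.00271). In these 4 genes no replicate 3 array overlapped the 6 other treated arrays, which was seen in 11% of all genes in the direction of a fall and in 14.9% in that of a rise. A count of 4 in 10 beside a background of 29.3% does not set these genes apart. The members' median difference was -0.11, against 0 over all genes.

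Set against control, the replicate 3 arrays of SOX4, at 11.03 to 11.31, were below both control arrays as well, while the treated arrays of replicates 1 and 2 reached 11.54 to 11.86. SPIB in replicate 3, at 6.91 to 7.06, was likewise below the control range of 7.1 to 7.25. IKZF1 in replicate 3, at 10.31 to 10.48, was above the control range of 10.17 to 10.22. TCF3 in replicate 3, at 10.78 to 10.98, overlapped its control range of 10.92 to 11.1. These 4 genes were picked by their replicate 3 values. The share of all genes that lie apart from control in this way is not given. Within treatments SOX4 in replicate 3 differed on the log2 scale by -0.64 in the miR-99a group, -0.25 in the miR-100 group and -0.78 in the combination. SPIB differed by -0.54, -0.19 and -0.3. IKZF1 was 0.15, 0.26 and 0.37 higher, and TCF3 differed by -0.35, -0.12 and -0.3. Each of the 4 genes kept its direction in all 3 treatments. With no overlap between replicate 3 and the other treated arrays, this had to be so.

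**Figure D3:**
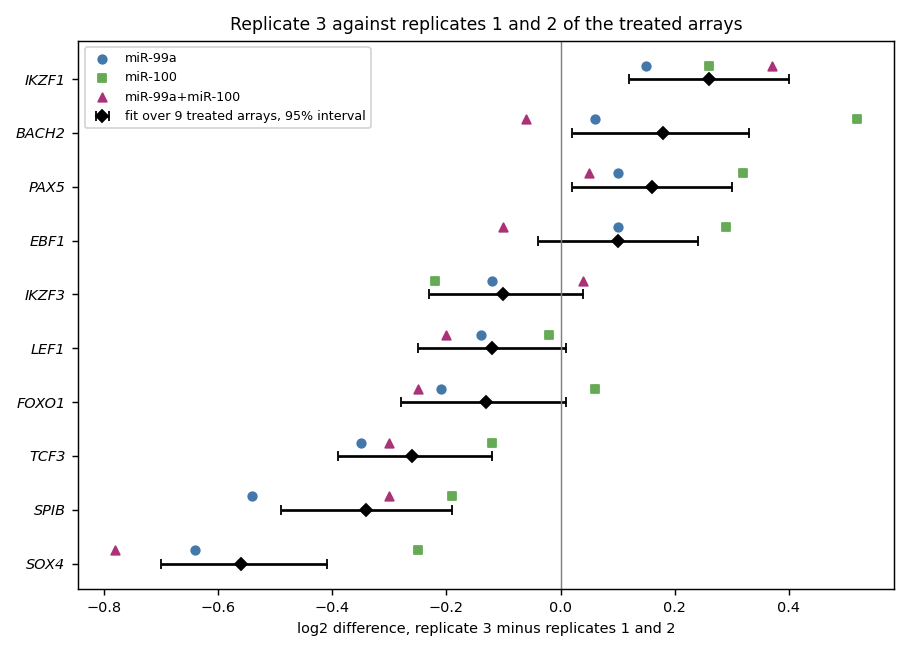
Log2 difference of replicate 3 from the mean of replicates 1 and 2 within each treatment, 1 point per treatment, and the fitted difference with its 95% interval over the 9 treated arrays. SOX4, SPIB and TCF3 lie below 0 and IKZF1 above 0 in all 3 treatments, which follows from their lack of overlap. The points of EBF1, FOXO1, BACH2 and IKZF3 fall on both sides.

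The other 6 genes did not pass. BACH2 was 0.18 ± 0.08 (adjusted p = 0.0865) and PAX5 0.16 ± 0.07 (adjusted p = 0.0838) higher in replicate 3, and in both the miR-100 array had the largest difference, 0.52 and 0.32. EBF1 differed by 0.1, LEF1 by -0.12, FOXO1 by -0.13 and IKZF3 by -0.1, with limma adjusted p of 0.34, 0.18, 0.172 and 0.319. Several of these calls depended on the scaling of the arrays. After quantile normalization TCF3 lost its call (-0.12, adjusted p = 0.103), PAX5 and EBF1 were called higher (0.34, adjusted p = 0.000232, and 0.3, adjusted p = 0.000112), FOXO1 was called lower (-0.19, adjusted p = 0.0318), and LEF1 turned from -0.12 to 0.09 without passing. SOX4, SPIB and IKZF1 kept their direction and call under that scaling. When the probe sets of a gene were averaged, SPIB (-0.14, adjusted p = 0.0746), TCF3 (-0.08, adjusted p = 0.224) and IKZF1 (0.13, adjusted p = 0.0703) lost their calls and SOX4 (-0.34, adjusted p = 0.000298) kept it. EBF1 was called higher in that setting (0.24, adjusted p = 0.00851). Without miR-99a replicate 3 the value of TCF3 was -0.21 (adjusted p = 0.0569), and without combination replicate 3 that of IKZF1 was 0.2 (adjusted p = 0.0806).

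Replicate 2 was also set against replicate 1, a comparison chosen after the values were seen, over the 8 arrays of those numbers in 4 groups. With limma, 0 of the 10 genes were called, where 0.587% of all genes were, and 5 members had an unadjusted p under 0.05, as did 2283 of all genes (11.5%). BACH2 was higher in replicate 2 in all 4 groups, by 0.19 in control and by 0.2, 0.22 and 0.17 with miR-99a, miR-100 and the combination, with a fitted difference of 0.2 ± 0.05 (SE, adjusted p = 0.0982). PAX5 was higher in all 4 groups too, by 0.13, 0.2, 0.21 and 0.16, with a fitted 0.18 ± 0.05 (adjusted p = 0.155). SPIB was lower in all 4, with differences of -0.15, -0.13, -0.36 and -0.19 and a fitted -0.21 ± 0.06 (adjusted p = 0.0973). EBF1, TCF3 and FOXO1 were above replicate 1 in all 4 groups as well, by 0.01 to 0.33, with adjusted p of 0.464, 0.554 and 0.269. The numbers are not taken as a pairing with control. Over treated arrays only, the limma adjusted p were 0.287 for BACH2, 0.314 for PAX5 and 0.23 for SPIB. The share of all genes with the same sign in all 4 groups is not given. When genes below the median level were left out, BACH2 and SPIB were called.

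Correlations between members over the 11 arrays are given as a description, since the arrays share replicate numbers and control and other genes correlate with the members as highly. Of 45 pairs, 8 had a Pearson correlation above 0.7 and 3 one below -0.7. Over the 8 arrays of replicates 1 and 2, 6 of the 8 and 1 of the 3 were still past those values, and 5 further pairs rose above 0.7, which made 11. Of these 5, PAX5 and LEF1 went from 0.22 to 0.83 and EBF1 and LEF1 from 0.46 to 0.86. TCF3 and SOX4 had r = 0.92 over 11 arrays and 0.87 over the 8. PAX5 and BACH2 had 0.83 and 0.87, PAX5 and EBF1 0.82 in both, and TCF3 and FOXO1 0.79 and 0.76. Other pairs were lower in size without replicate 3: IKZF1 and SOX4 had -0.71 over 11 arrays and -0.15 without replicate 3, and SPIB and SOX4 had 0.73 and 0.24.

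Other probe sets of the same genes bear on these values, since the 10 genes have 48 single-gene probe sets on the array. All 4 SOX4 probe sets with a mean of at least 8 were lower in replicate 3, by log2 differences of -0.56 to -0.34, each past the threshold when adjusted over all probe sets, and the other 3 correlated with the chosen one at 0.9 to 0.95 over the arrays. The 5 bright TCF3 probe sets all had values below 0, from -0.26 to -0.12, and 2 of them passed. BACH2's second probe set was called higher in replicate 3 (0.26, limma adjusted p = 0.00816) where the chosen one was not, with r = 0.89 between them. EBF1 was the gene whose probe sets differed most. Its probe set 233261_at, with a mean of 10.42, was 0.77 ± 0.08 (SE, adjusted p = 6.03e-10) higher in replicate 3 and correlated with the chosen probe set at 0.22, while the other 3 differed by 0.03 to 0.1. For IKZF1, the dimmer probe set 220704_at, with a mean of 6.62, was 0.61 higher in replicate 3 (adjusted p = 5.97e-09), the direction of the chosen one, with r = 0.81. Its other probe sets with a mean of at least 8 did not pass, 227346_at at 0.19 (adjusted p = 0.0558) and 227344_at at 0.07 (adjusted p = 0.581). SPIB has 1 other probe set, 232739_at, with a mean of 6.64, which differed by 0.07 (adjusted p = 0.558), away from the chosen one, with r = -0.47. No member probe set passed between all treatments and control, where adjusted p were 1.

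**Figure D4:**
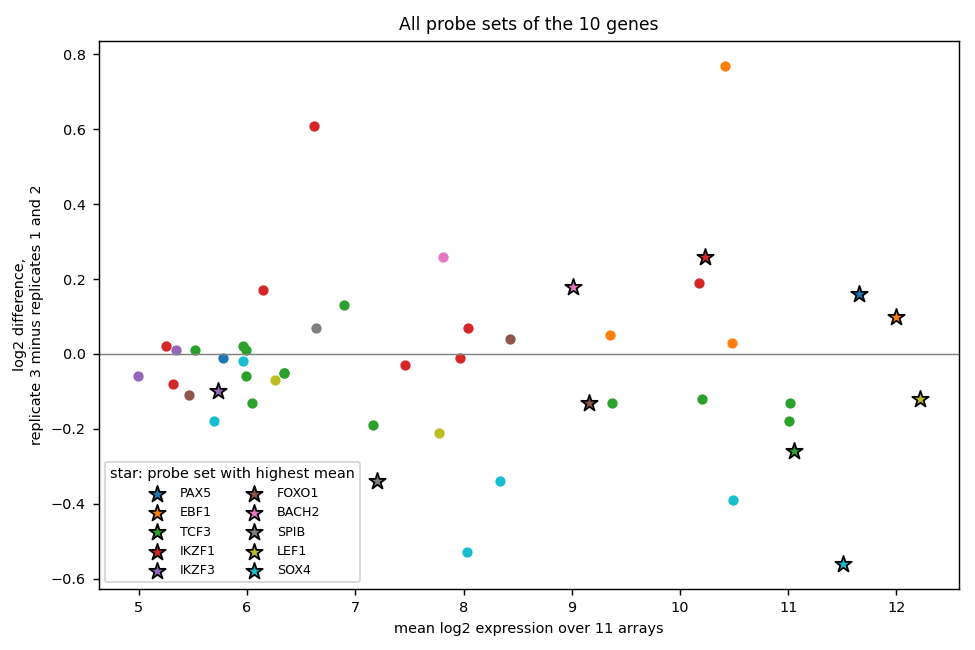
Log2 difference of replicate 3 from replicates 1 and 2 for the 48 probe sets of the 10 genes against their mean level over 11 arrays (log2), with the chosen probe sets marked. The SOX4 probe sets above a mean of 8 lie together below 0, and 1 EBF1 probe set lies at 0.77, away from the other 3.

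SOX4 and TCF3 had the highest correlation among the members and are both shown by the promoter RefSeq gives for them (GRCh38.p14), as E proteins such as those of TCF3 bind E-boxes. Each window runs from 250 bases before to 50 after the start of the gene, with E-boxes, CANNTG, in capitals. The SOX4 window is chr6:21593501-21593800 on the plus strand and that of TCF3 is chr19:1652566-1652865 on the minus strand.
SOX4 promoter: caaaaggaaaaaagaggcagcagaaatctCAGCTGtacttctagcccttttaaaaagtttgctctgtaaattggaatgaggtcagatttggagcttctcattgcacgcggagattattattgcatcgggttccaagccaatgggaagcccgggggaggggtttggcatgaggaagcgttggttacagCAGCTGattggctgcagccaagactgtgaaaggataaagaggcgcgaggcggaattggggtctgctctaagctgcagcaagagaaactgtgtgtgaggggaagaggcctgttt
TCF3 promoter: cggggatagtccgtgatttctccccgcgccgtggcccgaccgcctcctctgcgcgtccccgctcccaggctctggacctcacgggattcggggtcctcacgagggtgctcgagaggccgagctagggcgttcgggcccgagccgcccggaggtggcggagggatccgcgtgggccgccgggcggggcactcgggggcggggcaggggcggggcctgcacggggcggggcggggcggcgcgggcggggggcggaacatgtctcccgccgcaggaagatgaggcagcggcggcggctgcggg
The SOX4 window, 49.3% G and C, held 2 E-boxes, both CAGCTG, and the TCF3 window, 78.3% G and C, held 0. An E-box was found on either strand in 68.7% of 35116 promoter windows of this length. Of the 9 members with a window in the table, 6 held one. The Ikaros core TGGGAA was found in windows of EBF1, IKZF1, LEF1 and SOX4, and in 24% of all windows, and the ETS core AGGAAG in those of EBF1, TCF3, IKZF1 and SOX4, and in 33.6% of all. The FOXO motif TGTTTAC, in 3.42% of all windows, and the LEF1 motif CTTTGA, in 12.9%, were in none of the members' windows. IKZF3 was not among the entries. A match is a description of the letters and not a binding site.

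Genes for proteins that bind with these factors, and genes listed as their targets, were not called changed by the oligonucleotides either. A list of cofactors and partners had 48 measured genes. A list drawn up from general knowledge as targets of PAX5, EBF1, TCF3 and FOXO1 had 27, and the relation was not checked gene by gene. The former held other Ikaros, E-protein, ID, ETS, FOXO, IRF, POU and TCF/LEF family members, Groucho co-repressors and CBFB. RUNX1 was listed but is not among the 48. With limma, 0 genes of either list passed in any of the 6 oligonucleotide comparisons, as 0% of all genes did. Between all treatments and control the list medians were -0.03 for the cofactors and -0.02 for the targets, against -0.005 over all genes. The smallest unadjusted p values there belonged to FLI1 (-0.19 ± 0.09) and ETS1 (-0.21 ± 0.1), both ETS-family factors, and to RAG2 (-0.19 ± 0.07), of the V(D)J recombinase, and LIG4 (-0.21 ± 0.13), the ligase that joins its breaks. All 4 had a limma adjusted p of 1.

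With replicate number, both lists moved in both directions. In replicate 3, 10 of the 48 cofactors were called higher and 11 lower, with a median of -0.02, and 8 of the 27 targets were called higher and 8 lower, with a median of 0. Over all genes 17.1% were called higher and 12.2% lower. Of the targets 18, and of the cofactors 25, had a mean of at least 8. The share called among genes of that level is not given, so these counts do not set the lists apart. After quantile normalization the counts were 11 and 12 for the cofactors and 10 and 7 for the targets. That scaling called 3151 higher and 3019 lower of the 19775 genes. Among the targets, KLF2, a FOXO1 target that governs lymphocyte quiescence and trafficking, was lower by the most (-0.67, adjusted p = 1.08e-10). VPREB3, which associates with newly made immunoglobulin heavy chain, and CD79A, a signalling chain of the receptor and a target of EBF1 and PAX5, were lower (-0.59, adjusted p = 4.5e-09, and -0.56, adjusted p = 4.78e-08). IL7R, the receptor chain for the pro-B cytokine interleukin 7, was higher (0.42, adjusted p = 1.59e-06). Among the cofactors, SOX12 (-0.54, adjusted p = 4.24e-09), a relative of SOX4, CBFB (-0.4, adjusted p = 1.05e-05), the partner of RUNX1, and POU2AF1 (-0.38, adjusted p = 1.87e-05), the B-cell co-activator, were lower. TCF12 (0.43, adjusted p = 1.82e-06), an E protein that pairs with the TCF3 products, was higher where TCF3 was lower. After quantile normalization TCF12 kept its limma call (0.38, adjusted p = 1.88e-05) and TCF3 did not (-0.12, adjusted p = 0.103). Of the 7 plasma cell markers, MZB1 and SDC1 were lower in replicate 3 (-0.27 and -0.17, adjusted p = 0.00125 and 0.0448). The other 5 were not called, with values from -0.09 for PRDM1 to 0.04 for XBP1. The part of these markers in the result was not tested.

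**Figure D5:**
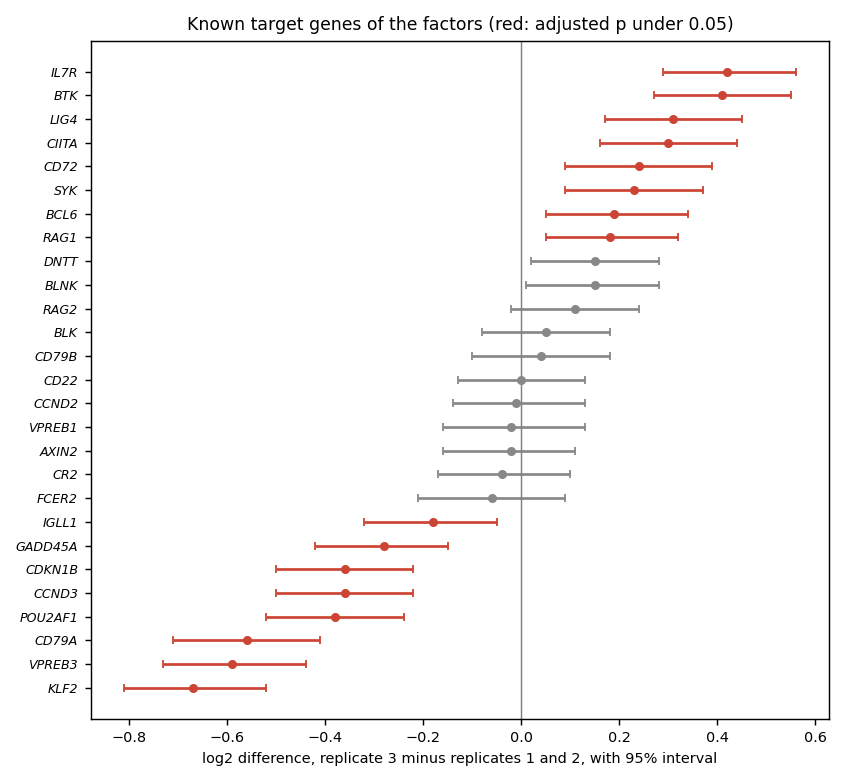
Log2 difference of replicate 3 from replicates 1 and 2 over the 9 treated arrays for the 27 measured genes of the target list. Each point is 1 gene with its 95% interval, in red where the limma adjusted p was under 0.05. The 8 genes called higher run up to IL7R at 0.42 and the 8 called lower run down to KLF2 at -0.67.

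Between replicates 2 and 1 the target list had 1 gene called, CD72, a co-receptor of B cells that PAX5 regulates, at 0.24 ± 0.06 (SE, limma adjusted p = 0.039), where 0.587% of all genes were called. Values were above 0 for 23 of the 27 targets and for 56% of all genes. After quantile normalization CD72 was no longer called (0.22, adjusted p = 0.0938), 21 of the 27 were above 0, and the genes called over the whole array turned from 79 higher and 37 lower to 9 higher and 29 lower. The list median was 0.09, against 0.01 over all genes, and the cofactor list had 0 called and a median of 0.05.

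The genes whose values ran closest to each member were sought among 5552 genes with a mean of at least 8, by Pearson correlation over the 11 arrays. Closest to SOX4 were HNRNPA0 (r = 0.989), PPP2CB (0.989) and VPS29 (0.988). FAM117A (0.985), ORAI3 (0.983) and SNHG32 (0.972) were closest to TCF3. PAX5 ran with TNFAIP3 (0.968), which encodes the NF-kB inhibitor A20, with the stress-response factor DDIT3 (0.949) and with QPRT (0.949). EBF1 ran with EEF1D (0.949), CYTH3 (0.949) and the haematopoietic factor MYB (0.921). BACH2 ran with IGF1R (0.956), VPS28 (0.953) and MAP4 (0.951), and IKZF1 with ARHGAP45 (0.949), a probe set listed under MIR142 (0.94) and MRPS34 (0.935). FOXO1 had the lowest values of the 8 genes searched, with MEF2D (0.884), TRIB3 (0.873) and ANXA2R (0.872). LEF1 ran with PCBP2 (0.913), IGLL1 (0.904), a component of the surrogate light chain, and DDRGK1 (0.903). These values were picked as the highest of 5552 for each member, over arrays that share replicate 3.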

How the data were processed

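RNA of the 11 samples was hybridised to Affymetrix whole-genome arrays after one-cycle labelling, per the labels' protocols. The deposited values are log2 signals, as their range of 4.4 to 14.84 shows. How probe sets were summarised, corrected for background and normalized is not given in the sources used here. Array medians of 5.95 to 5.98 show a scaling between arrays that can leave differences at high signal, so quantile normalization was tried. Of 54675 probe sets, the 62 controls, 1801 with several genes and 11777 with none were left out, and the brightest probe set of each gene kept, giving 19775 genes.

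Group means were fitted over 11 arrays with limma 3.58.1 (lmFit and eBayes) in R 4.3.3, and p-values, 2-sided, adjusted by Benjamini-Hochberg over all genes; adjusted p under 0.05 was called. Replicate 3 was set against 1 and 2 over the 9 treated arrays with treatment as a term. The scripts were tested on simulated data. The number of arrays limits the precision.

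Members, lists, tests and alternatives were chosen with earlier results of these data known, and the lists come from general knowledge. All members were named, then the 3 genes most correlated with each member of mean 8 or more, and from each list up to 4 called genes by smallest p or, with none, the 2 with the smallest p between all treatments and control.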

Additional observations from a re-analysis of the deposited data

Results flagged for a closer look

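EBF1 and IKZF3 moved in opposite directions with replicate number in different treatments. For EBF1, replicate 3 minus the mean of replicates 1 and 2 was 0.1 with miR-99a and 0.29 with miR-100, where replicate 3 was the highest array, and -0.1 with the combination, where it was the lowest. For IKZF3 the values were -0.12 and -0.22 with the single oligonucleotides, where replicate 3 was the lowest array, and 0.04 with the combination, where it was the highest. IKZF3 has a low signal, and its small differences carry little weight. FOXO1 (-0.21, 0.06 and -0.25 with miR-99a, miR-100 and the combination) and BACH2 (0.06, 0.52 and -0.06) changed sign between treatments too. Each value rests on 1 replicate 3 array per treatment, and the difference between treatments was not tested.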

How the results depend on the processing

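Alternatives were the replicate number as a block, replicate 3 as a term, replicates 1 and 2 alone, quantile normalization, genes at or above the median level, the mean of a gene's probe sets, every probe set as a row, a trend in eBayes, the compared groups alone, and leaving out each array. In the oligonucleotide comparisons none called a member. With group means removed, same-numbered arrays correlated above 0.1 in 9 of 9 pairs of treatments (0.168 to 0.816) and in 3 of 6 pairs with control (-0.152 to 0.438). The treatments share the shift of replicate 3, which raises the former values, and control has no replicate 3. The values therefore cannot show that numbers 1 and 2 pair the treated arrays. The numbers were used as a block and are not taken as a pairing with control. The replicate block called 5, 7, 863, 507, 1 and 1 genes in the 6 comparisons and no member, with 2, 0, 2, 1, 0 and 1 members at an unadjusted p under 0.05; its SOX4 differences from control were 0.19, 0.17 and 0.25 ± 0.09 (adjusted p = 0.468, 0.458 and 0.112). All-gene counts moved more: replicate 3 as a term called 443 genes for the combination and 24 for all treatments, where the fit without it called 0. For replicate 3 against 1 and 2, 2 members rather than 4 were called with the mean of all probe sets, EBF1 (0.24, adjusted p = 0.00851) and SOX4. SOX4 kept its call in all alternatives run (-0.71 to -0.34). Leaving out 1 array gave 3 to 6 called members. PAX5 was gained without miR-99a replicate 2 or combination replicate 2, and BACH2 without either of these or combination replicate 3. FOXO1 was gained without miR-100 replicate 1 or 3. The share of all genes called in these fits is not given here. For replicate 2 against 1, 2 members were called once dim genes below the median were dropped, and the all-gene count of 116 (79 higher, 37 lower) became 38 (9 higher, 29 lower) under quantile normalization. No detection calls were used, so dim genes such as IKZF3 have no stated floor.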

Other observations

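Some member probe sets that were not the brightest had larger differences between all treatments and control than the chosen ones, all with a limma adjusted p of 1. EBF1 probe set 232204_at was 0.36 ± 0.12 (SE) higher, LEF1 probe set 210948_s_at differed by -0.34 ± 0.13, and TCF3 probe set 202648_at by -0.26 ± 0.07, where the chosen probe sets of these genes differed by -0.02 to 0.06.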
